A study of Mus musculus with 9 samples.

Results

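Inflammasomes are cytosolic protein assemblies that sense danger and activate the protease caspase-1. The genes described here are 10 that encode the sensors, adaptor, proteases, pore former, cytokines and receptor of this pathway: Nlrp3, Nlrc4, Aim2, Pycard, Casp1, Casp4, Gsdmd, Il1b, Il18 and Il1r1. Their rows were taken from the count table by gene name, and each had 1 row among its 55414 genes. RNA was sequenced from retinas of Balb/c mice, an albino strain. The 9 libraries fell into 3 groups of 3: light damage with A74, light damage without it, and control. The series title concerns inhibition of P2RX7, and its design asks how A74 protects the retina, but the labels do not spell out A74 or give its dose, vehicle, route or timing. They also do not give the light exposure, the time of harvest, the age of the mice, or whether each library came from 1 animal.

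A sensor such as Nlrp3, Nlrc4 or Aim2 recruits caspase-1 through the adaptor ASC, which Pycard encodes. Caspase-1 matures interleukin-1 beta and interleukin-18 and cuts gasdermin D, whose released part forms pores in the plasma membrane and brings about pyroptosis, a lytic cell death. P2RX7 is a channel gated by extracellular ATP. Its opening lets potassium leave the cell, a known trigger of Nlrp3. In the retina several of these genes are best known from microglia and invading macrophages.

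Promoter sequences are shown for Casp1 and Pycard, whose counts separated the groups most clearly, and for Casp4, a caspase gene beside Casp1 on chromosome 9 that stayed at few reads. Each is the 250 bases before the gene's start, 5′ to 3′ on the gene's strand, from RefSeq on GRCm38.p6, a C57BL/6J assembly and not the strain studied. Casp1 lies at chr9:5298267-5298516 on the plus strand, Pycard at chr7:127993868-127994117 on the minus strand, and Casp4 at chr9:5308599-5308848 on the plus strand. Capitals mark matches to a searched motif.
Casp1: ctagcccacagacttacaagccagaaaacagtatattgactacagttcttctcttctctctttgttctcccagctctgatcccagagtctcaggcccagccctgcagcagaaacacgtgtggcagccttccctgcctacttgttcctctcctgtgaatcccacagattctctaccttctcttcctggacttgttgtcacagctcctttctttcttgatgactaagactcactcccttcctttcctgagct
Pycard: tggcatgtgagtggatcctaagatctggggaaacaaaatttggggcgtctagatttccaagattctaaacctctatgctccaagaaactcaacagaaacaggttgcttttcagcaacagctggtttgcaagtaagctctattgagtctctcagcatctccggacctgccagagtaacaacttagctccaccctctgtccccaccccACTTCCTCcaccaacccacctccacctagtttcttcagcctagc
Casp4: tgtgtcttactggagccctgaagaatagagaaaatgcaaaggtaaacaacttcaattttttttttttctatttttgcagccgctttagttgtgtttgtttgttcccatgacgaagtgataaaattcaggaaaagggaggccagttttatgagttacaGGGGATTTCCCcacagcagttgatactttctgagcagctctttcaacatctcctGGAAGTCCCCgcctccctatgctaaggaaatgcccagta
Each motif was searched on both strands: the IRF or ISRE core, the STAT element TTCNNNGAA, the PU.1 core GAGGAAGT and the NF-kB motif. The capitals in the Pycard promoter are the PU.1 core read on the opposite strand, beginning 44 bases before the start. Those in the Casp4 promoter are NF-kB matches beginning 93, 92 and 39 bases before the start, of which the first 2 overlap. None of the 4 motifs was found in the Casp1 window. Of 32851 RefSeq promoters searched the same way, 2.44% held the PU.1 core, 7.25% the NF-kB motif, 2.98% the IRF or ISRE core and 7.02% the STAT element. The 12 entries for the members, which cover 9 of the 10 genes, held the PU.1 core in 2 cases, the NF-kB motif in 4 and neither of the others in any. The 4 NF-kB entries are 3 genes, since both Casp4 windows overlap and hold the same matches.

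Library totals ran between 14787972 and 18740434 counts. The retina markers were high in every library, with 111120 to 193470 counts of Gnat1, the alpha subunit of rod transducin. The libraries also differed in ways the labels do not give. Transcripts of the Y chromosome reached 4249 to 5832 counts in light damage replicates 1 and 2 and control replicates 1 and 2, and 0 in the other 5 libraries, including all A74 libraries. Xist, the RNA of the inactive X chromosome, had 17227 to 18172 counts in the A74 libraries and 22253 in control replicate 3, against 1 to 4 in the light damage libraries and 1 to 7 in control replicates 1 and 2. Light damage replicate 3 thus had neither Y transcripts nor Xist at that level. In A74 against light damage, A74 and the Xist status of the libraries, and with it the sex of the mice, cannot be told apart. Marker genes of the anterior eye summed to 138 to 275 CPM, which are counts scaled to a common library size, in A74 replicate 1, light damage replicates 1 and 2 and control replicates 1 and 2, and to 12.5 to 15.9 CPM in the rest. All p-values measure the spread between these libraries, which may be technical.

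After light damage, Casp1 and Pycard rose relative to control. With A74, Casp1, Pycard and Gsdmd fell relative to light damage alone, and none of the members differed from control by the test. Il18, Il1r1, Aim2 and Nlrc4 passed the test in no comparison, and Nlrp3, Il1b and Casp4 had too few reads to be tested. Differences were tested with edgeR's quasi-likelihood test on 17272 genes with enough reads, and a gene was called at a Benjamini-Hochberg adjusted p under 0.05. The 7 members tested were Casp1, Pycard, Gsdmd, Nlrc4, Aim2, Il18 and Il1r1. Casp1 and Pycard had under 10 counts in every A74 and control library, so they passed the minimum through light damage alone.

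**Figure D1:**
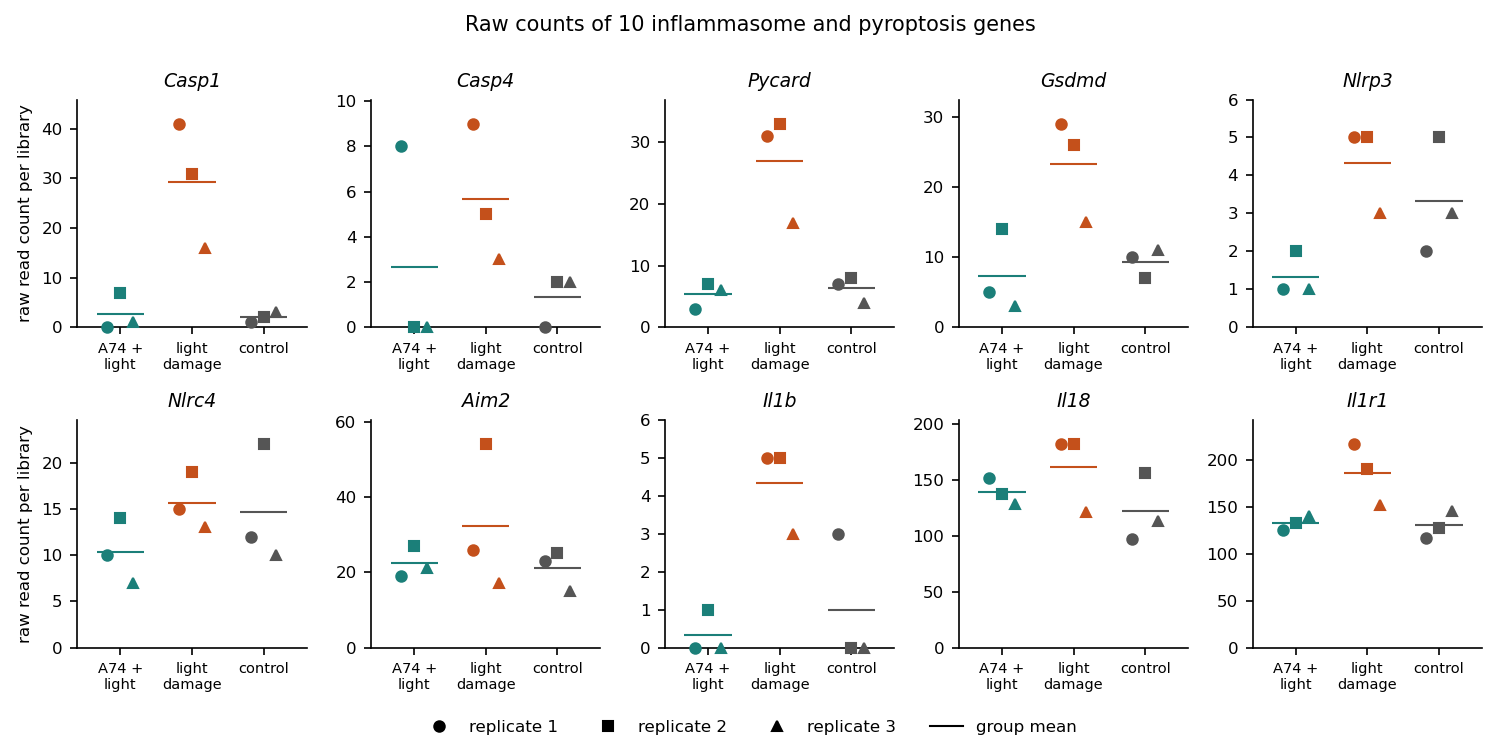
Raw read counts of the 10 genes in each library, by group, with the replicate number as the marker shape and the group mean as a line; each panel has its own linear scale starting at 0. Casp1 and Pycard lie above all A74 and control libraries in all 3 light damage libraries, while Il18 overlaps between the groups.

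Of the sensors, Nlrp3, which responds to potassium efflux, was near the limit of detection. It had 1, 2 and 1 counts in A74 retinas, 5, 5 and 3 in light damaged retinas and 2, 5 and 3 in control retinas. The A74 libraries did not exceed 2 counts, and the light damage and control libraries overlapped. From summed counts scaled by library size, the light damage to control ratio was 1.16 (exact 95% counting interval 0.47 to 2.95), and the A74 to light damage ratio was 0.331 (0.0787 to 1.07). Nlrc4, which assembles with NAIP proteins that bind bacterial ligands, had 10, 14 and 7 counts with A74, 15, 19 and 13 with light damage and 12, 22 and 10 in control. The raw counts overlapped in both comparisons, although in CPM each A74 library lay below each light damage library. The log2 fold changes were -0.06 for light damage against control (SE 0.36, edgeR adjusted p = 0.924) and -0.49 for A74 against light damage (SE 0.38, edgeR adjusted p = 0.403). Aim2, a sensor of cytosolic double-stranded DNA, had 19, 27 and 21 counts with A74, 26, 54 and 17 with light damage and 23, 25 and 15 in control. Light damage replicate 2 stood above the other 8 libraries, and light damage replicate 3 lay within the control range. The Aim2 log2 fold change was 0.42 for light damage against control (SE 0.34, edgeR adjusted p = 0.398) and -0.40 for A74 against light damage (SE 0.34, edgeR adjusted p = 0.449). Aim2 lies within the span of Cadm3, which had 5203 to 6736 counts, although their exons do not overlap.

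Pycard, the adaptor, had 3, 7 and 6 counts in A74 retinas, 31, 33 and 17 in light damaged retinas and 7, 8 and 4 in control retinas. Its lowest light damage library exceeded every A74 and control library. The level was 0.336 ± 0.126 CPM with A74, 1.57 ± 0.397 CPM with light damage and 0.416 ± 0.127 CPM in control (SD, n = 3 each). Pycard had a log2 fold change of 1.90 for light damage against control (SE 0.40, edgeR adjusted p = 0.00259) and of -2.20 for A74 against light damage (SE 0.41, edgeR adjusted p = 0.00204). An exon of Pycard overlaps Gm45205, which had 4, 9 and 2 counts with A74, 5, 2 and 0 with light damage and 9, 6 and 16 in control. How strand was used in counting is not given in the sources used here, so reads of the 2 genes may be shared.

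Casp1, the protease at the centre of the canonical inflammasome, showed the largest change among the tested members in both comparisons with light damage. It had 0, 7 and 1 counts with A74, 41, 31 and 16 with light damage and 1, 2 and 3 in control. Nearly all of its reads therefore came from the 3 light damage libraries. Its level was 0.162 ± 0.225 CPM with A74, 1.71 ± 0.714 CPM with light damage and 0.131 ± 0.0664 CPM in control (SD, n = 3 each). The log2 fold change was 3.63 for light damage against control (SE 0.66, edgeR adjusted p = 0.00101) and -3.30 for A74 against light damage (SE 0.62, edgeR adjusted p = 0.00239). The size of the second rests on A74 replicate 2, which held 7 of the 8 A74 reads: without it the value was -5.41 (edgeR adjusted p = 0.00169). Casp4, the mouse caspase that senses intracellular lipopolysaccharide in the non-canonical pathway, had 8, 0 and 0 counts with A74, 9, 5 and 3 with light damage and 0, 2 and 2 in control. All A74 reads of Casp4 were in replicate 1. The light damage to control ratio of Casp4 was 3.79 (exact 95% counting interval 1.24 to 15.5, 17 against 4 counts). That interval covers counting error only, and a fit with no count minimum gave an edgeR adjusted p of 0.205.

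Gsdmd, the pore former cut by caspase-1, had 5, 14 and 3 counts with A74, 29, 26 and 15 with light damage and 10, 7 and 11 in control. The lowest light damage library was 1 count above the highest A74 library and also above all control libraries. Its level was 0.452 ± 0.339 CPM with A74, 1.36 ± 0.38 CPM with light damage and 0.623 ± 0.175 CPM in control (SD, n = 3 each). Against light damage, the log2 fold change with A74 was -1.55 (SE 0.45, edgeR adjusted p = 0.0252). This call was lost without light damage replicate 1 (0.111), light damage replicate 2 (0.0727), A74 replicate 1 (0.0852) or A74 replicate 3 (0.112), and without A74 replicate 2 the value was -2.36 (edgeR adjusted p = 0.0126). For light damage against control it was 1.13 (SE 0.44, edgeR adjusted p = 0.0654), which missed the threshold. Without light damage replicate 3 it was 1.31 (edgeR adjusted p = 0.0365), with no count minimum the adjusted p was 0.0447, and with only those 6 libraries fitted it was 0.0423.

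Of the cytokines, Il1b was barely detected. It had 0, 1 and 0 counts with A74, 5, 5 and 3 with light damage and 3, 0 and 0 in control. The light damage to control ratio was 3.86 (exact 95% counting interval 1.06 to 21.1) and the A74 to light damage ratio was 0.0828 (0.00195 to 0.551). With no count minimum, the edgeR adjusted p was 0.352 for light damage against control and 0.105 for A74 against light damage. An antisense gene, Il1bos, overlaps Il1b and had 3, 5 and 1 counts with A74, 7, 9 and 3 with light damage and 2, 4 and 4 in control, so the few reads given to Il1b cannot be told from antisense reads. Il18, whose product is stored as an inactive precursor, was the most abundant member per length. It had 152, 137 and 128 counts with A74, 182, 182 and 121 with light damage and 97, 156 and 113 in control. Light damage replicate 3 lay inside the control range. The Il18 log2 fold change was 0.25 for light damage against control (SE 0.16, edgeR adjusted p = 0.27) and -0.11 for A74 against light damage (SE 0.15, edgeR adjusted p = 0.677). Il1r1, the receptor through which interleukin-1 signals, had 125, 133 and 140 counts with A74, 217, 190 and 152 with light damage and 117, 128 and 146 in control. Every light damage library was above every A74 and control library in CPM. The margin over control was small, with 9.881 CPM in light damage replicate 2 against 9.843 CPM in control replicate 3. The Il1r1 log2 fold change was 0.35 for light damage against control (SE 0.15, edgeR adjusted p = 0.091) and -0.38 for A74 against light damage (SE 0.15, edgeR adjusted p = 0.0785). The second was called only without light damage replicate 3 (0.0452) among the fits that left out 1 library.

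In light damage against control, 2 of the 7 tested members were called higher and 0 lower, where 13.0% of all genes tested were called higher and 12.8% lower (25.8% in all). Casp1, Pycard, Gsdmd and Il1r1, 4 of the 7, did not overlap between these groups in CPM, as was the case for 40.6% of all genes. The median log2 fold change was 0.42 over the tested members and 0.01 over all genes tested. In A74 against light damage, 3 of 7 were called lower and 0 higher, against 9.19% lower and 9.07% higher over all genes (18.3% in all). The same 4 genes and Nlrc4, 5 of the 7, did not overlap in CPM, as was the case for 35.2% of all genes. The medians were -0.49 over the tested members and 0.00 over all genes. These comparisons share the 3 light damage libraries, so a high value there moves both in opposite directions. With so few members, and some admitted through light damage alone, the counts only describe the list. In A74 against control, edgeR called 0 of 7 members, against 0.892% of all genes in either direction. All 7 overlapped in CPM, where 22.8% of all genes did not. At an unadjusted p under 0.05 edgeR also called 0 members. DESeq2 called 0, but it set an adjusted p for only 2 of the 7, so the others could not be called. The log2 fold changes in that comparison were 0.33 for Casp1 (SE 0.97), -0.30 for Pycard (SE 0.51) and -0.42 for Gsdmd (SE 0.51), with edgeR adjusted p of 0.906, 0.823 and 0.747. The Casp1 error is wide enough to allow a change of several fold either way, and without A74 replicate 2 the value was -1.78. The fold changes of Il18, Il1r1 and Aim2 were 0.14 (SE 0.16), -0.03 (SE 0.15) and 0.03 (SE 0.35). That of Nlrc4 was -0.55 (SE 0.39, edgeR adjusted p = 0.517).

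**Figure D2:**
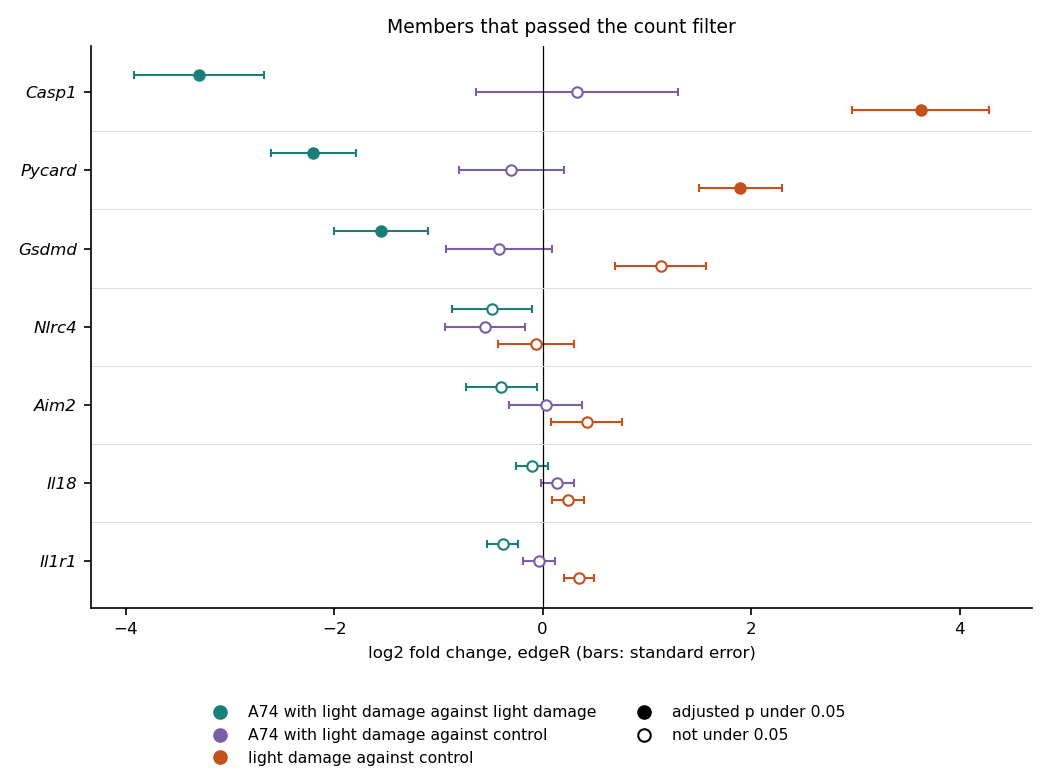
Log2 fold changes of the 7 tested members in each of the 3 comparisons, with standard errors as bars, filled where the edgeR adjusted p was under 0.05. Casp1 and Pycard are filled at 3.63 and 1.90 for light damage against control and at -3.30 and -2.20 for A74 against light damage, and no A74 against control point is filled.

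Y chromosome transcripts were absent from all A74 libraries, and Xist was high in all of them and in no light damage library. With the presence of Y transcripts, but not of Xist, added to the model, 0 members were called in A74 against light damage. Casp1 was at -2.82 (edgeR adjusted p = 0.0631), Pycard at -1.67 (0.0694) and Gsdmd at -1.39 (0.191). Among light damage and control libraries, this term makes the same split as the anterior eye markers. It leans on light damage replicate 3, the only light damage library without Y transcripts. That library also had the lowest microglia marker sum of its group, 247 against 413 and 334 CPM. Which of these differences the lost calls follow was not tested. Light damage replicate 3, with 0 Y counts but 1 count of Xist, is not matched to the A74 libraries in Xist. It had 16 counts of Casp1 against 0, 7 and 1 with A74, 17 of Pycard against 3, 7 and 6, and 15 of Gsdmd against 5, 14 and 3. DESeq2 called Gsdmd alone in this comparison (adjusted p = 0.0423) and set no adjusted p for Casp1 and Pycard, whose unadjusted DESeq2 p-values across all genes were 1.93e-05 and 0.000156. Within the libraries high in anterior eye markers, 1 A74 against 2 light damage libraries, the log2 differences were -4.09 for Casp1, -2.60 for Pycard and -1.90 for Gsdmd. Within the libraries low in them, 2 against 1, they were -1.86, -1.22 and -0.989. For light damage against control, the differences were 3.28 for Casp1 and 1.64 for Pycard in the high libraries (2 against 2) and 1.84 and 1.65 in the low ones (1 against 1). The direction was the same in both sets, with no test at these numbers.

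Microglia and macrophage markers moved with the called members. The 17 markers summed to 94.2, 129 and 105 CPM with A74, 413, 334 and 247 CPM with light damage and 93.3, 96.2 and 88.4 CPM in control. Of the 16 markers tested, 14 were higher in light damage than in control, 15 fell in A74 against light damage, and 0 differed between A74 and control. In whole retina, fewer cells of a type and less RNA per cell cannot be told apart. Of 9 neutrophil markers, Mpo, Elane, Ly6g and Retnlg were at 0 in every library, and the whole list summed to 0.0664 to 0.638 CPM with A74, 0.0656 to 0.208 CPM with light damage and 0.121 to 0.565 CPM in control. Markers of other retinal cells moved as well: of 8 Müller glia markers 7 were higher in light damage than in control and 7 lower in A74 against light damage, and of 10 rod markers 7 were lower and 8 higher in the same comparisons. Markers of endothelium and pericytes summed to 346 to 359 CPM with A74, 461 to 585 CPM with light damage and 324 to 354 CPM in control, with 1 of 6 called higher in light damage than in control and 2 lower in A74 against light damage. The 5 monocyte markers summed to 1.46 to 15.1 CPM with A74, 1.51 to 20.4 CPM with light damage and 2.22 to 24.7 CPM in control. This sum was high in the same 5 libraries as the anterior eye markers, but the 2 lists share the gene Vcan. Only 1 of the 5 monocyte markers passed the count minimum, so the match does not show monocytes in those libraries. The part of cell number in the changes of Casp1, Pycard and Gsdmd was not tested.

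Set against the summed microglia markers, the members fell into different patterns. The log2 ratio of Pycard to the marker sum was 0.165 lower in light damage than in control (exact permutation p = 0.4, n = 3 each). In A74 against light damage the Pycard ratio differed by -0.303 (exact permutation p = 0.2, n = 3 each). The marker sum itself differed by 1.81 and -1.58 on the log2 scale in these comparisons. The Casp1 ratio differed by 0.988 for light damage against control and by -1.31 for A74 against light damage (exact permutation p = 0.1 for each, n = 3 each). These sizes depend on the prior count added to the near-zero Casp1 counts, and with 0.5 in place of 2 they were 1.61 and -2.30. The Gsdmd ratio differed by -0.824 for light damage against control (exact permutation p = 0.1, n = 3 each) and by 0.0937 for A74 against light damage (exact permutation p = 0.7, n = 3 each). The ratios of Nlrc4, Aim2, Il18 and Il1r1 were lower by 1.47 to 1.81 in light damage than in control. They were higher by 1.13 to 1.49 in A74 against light damage. The log2 fold changes of these 4 genes were -0.06 to 0.42 and -0.49 to -0.11 in the same comparisons. Their ratios therefore mostly mirror the move of the marker sum. In all, 21 such differences were computed with two-sided tests. With 3 libraries a group the smallest possible p is 0.1, so none could pass a 0.05 threshold before or after adjustment.

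**Figure D3:**
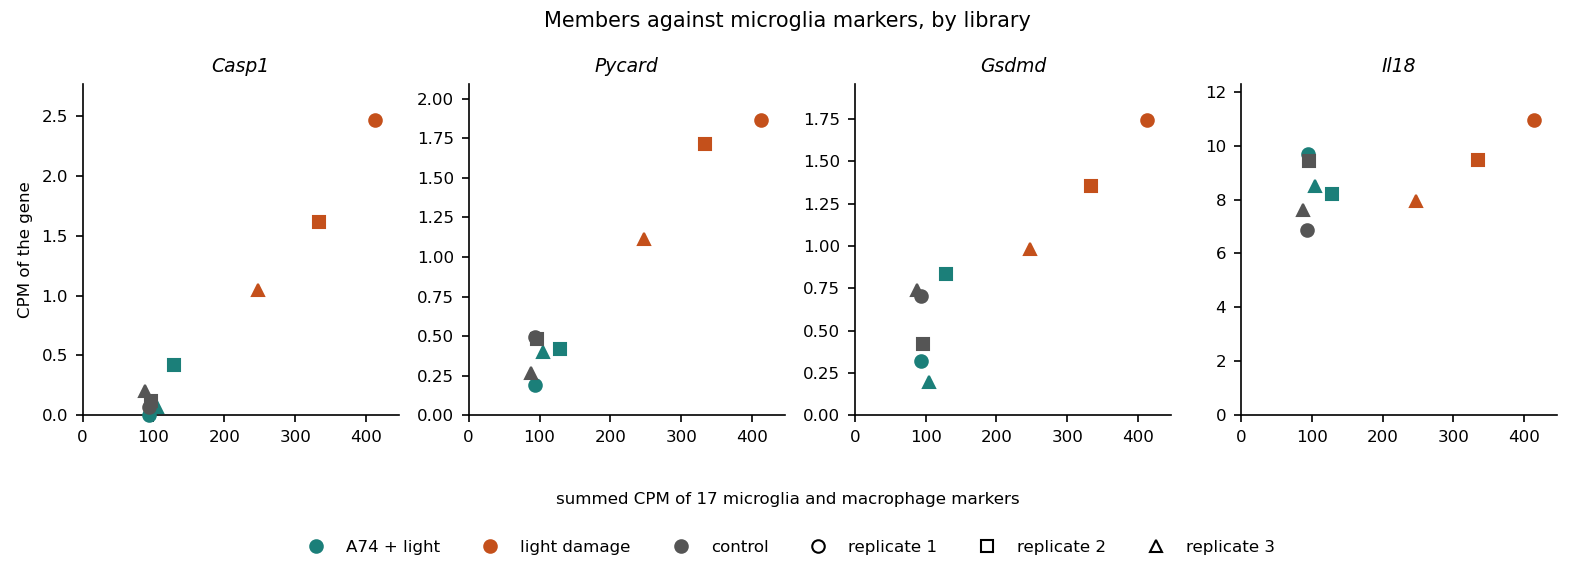
CPM of Casp1, Pycard, Gsdmd and Il18 against the summed CPM of 17 microglia and macrophage markers in each of the 9 libraries, colour for group and shape for replicate, on linear axes starting at 0. The 3 light damage libraries, at marker sums of 247 to 413 CPM, lie apart from the others for Casp1 and Pycard, while Il18 spans a similar range in all groups.

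Divided by the length of each gene's merged exons in GENCODE M21, levels could be roughly ordered between members. That length joins the exons of all annotated transcripts, 3800 bases for Pycard. It may exceed the length of the RNA present, which would lower a gene's place. In light damaged retinas Il18 was highest at 9.17 CPM per kb, then Il1r1 at 1.72, Casp1 at 1.14, Gsdmd at 0.572, Aim2 at 0.522, Pycard at 0.412, Nlrc4 at 0.19, Il1b at 0.132, Casp4 at 0.0897 and Nlrp3 at 0.0622. The sensors, apart from Aim2, thus lay below the adaptor and Casp1. With A74, Casp1 was at 0.108 CPM per kb, against 0.0876 in control, and Il18 was at 8.53, against 7.72 in control. The neighbours Gsdmd and Aim2 in light damage differed by less than their spread between libraries.

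Over the 9 libraries, the levels of Casp1, Pycard and Gsdmd varied together. The Pearson correlation of log2 CPM was 0.92 for Casp1 with Pycard, 0.89 for Casp1 with Gsdmd and 0.79 for Pycard with Gsdmd. Il1r1 varied with them too, at 0.77 with Casp1, 0.71 with Pycard and 0.64 with Gsdmd. Casp1 correlated at 0.4 with Il18, 0.39 with Nlrc4 and 0.41 with Aim2. These are descriptions over libraries that share groups and depth. The 5 genes most like Casp1 were Rnh1, which encodes a ribonuclease inhibitor (0.985), Pla2g4a, a phospholipase A2 (0.98), Syt15 (0.976), Adgrl4 (0.976) and Stx6 (0.975). Those most like Pycard were Rab31 (0.99), Ccdc102a (0.986), Mlc1 (0.986), Tnfrsf1a, a receptor of tumour necrosis factor (0.983), and Rasgrp3 (0.981). Those most like Gsdmd were Nes, an intermediate filament gene of progenitor cells and reactive glia (0.957), Parm1 (0.952), Rgs6 (0.952), Tmem119, a marker of microglia (0.944), and Gm6781 (0.942). Nlrc4 stayed under 1 CPM in every group mean and was not examined in this way.

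Of 48 further genes of the pathway, 27 passed the count minimum. In light damage against control 14 were called higher and 1 lower, against 13.0% and 12.8% of all genes tested, with a median log2 fold change of 0.30. In A74 against light damage 2 were called higher and 10 lower, against 9.07% and 9.19% of all genes, with a median of -0.36. In A74 against control edgeR called 0 of 27, against 0.892% of all genes in either direction, with 4 at an unadjusted p under 0.05. With no count minimum, edgeR called 1 pathway gene in that comparison, Gbp5 at 0.88 (edgeR adjusted p = 0.0329). DESeq2 called 0 of the 20 for which it set an adjusted p. The 15 calls in light damage against control became 7 without light damage replicate 1 and 9 without light damage replicate 2. The 12 in A74 against light damage became 6 without light damage replicate 1 and 19 without light damage replicate 3. With the Y transcript term, 3 were called in A74 against light damage, among them Gsdme and Il33. By class, 5 of 6 sensors and adaptors, 4 of 7 pore and death executioners, 1 of 5 cytokines and receptors and 4 of 9 signalling genes were called higher in light damage than in control, where 13.0% of all genes were, and 1 executioner was called lower. In A74 against light damage, 2 of 6 sensors and adaptors, 3 of 7 executioners, 1 of 5 cytokines and receptors and 4 of 9 signalling genes were called lower, where 9.19% of all genes were, and 1 executioner and 1 signalling gene were called higher. Naip2 and Irak3 reached the count minimum in 1 of the 6 A74 and control libraries and P2rx7 in 2, fewer than the 3 needed, so these genes entered the test through light damage and the counts only describe the list.

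Among the sensors and their partners, Naip2, which binds a bacterial secretion rod protein for Nlrc4, averaged 0.306 CPM with A74, 1.45 CPM with light damage and 0.0886 CPM in control. Its log2 fold changes were 3.93 for light damage against control (SE 0.63, edgeR adjusted p = 0.000335) and -2.18 for A74 against light damage (SE 0.49, edgeR adjusted p = 0.00597), the second at -3.40 without A74 replicate 2 and lost with the Y transcript term (0.0713). Its counts were 2, 11 and 2 with A74, 29, 25 and 20 with light damage and 1, 1 and 2 in control. Naip5, a flagellin receptor below the count minimum, had 2, 9 and 4 counts with A74, 28, 21 and 8 with light damage and 1, 0 and 3 in control. Naip6, also a flagellin receptor, had 4, 2 and 2 counts with A74, 5, 3 and 8 with light damage and 2, 0 and 1 in control. NAIP genes are near-identical copies, so reads may be split between them. P2rx7 had 8, 14 and 9 counts with A74, 36, 31 and 16 with light damage and 3, 12 and 7 in control. Its log2 fold change was 1.74 for light damage against control (edgeR adjusted p = 0.00648) and -1.30 for A74 against light damage (edgeR adjusted p = 0.0325). The second was lost without light damage replicate 1 or 2 or any 1 A74 replicate, at adjusted p of 0.059 to 0.166, with DESeq2 (0.0659), with a term for the anterior eye markers (0.069) and with the Y transcript term, at -0.88 (0.37). Gbp5, a guanylate-binding protein, was higher by 2.04 in light damage than in control (SE 0.40, edgeR adjusted p = 0.00401). With A74 against light damage it was at -1.17 (edgeR adjusted p = 0.0502), and under the threshold without light damage replicate 3 (9.33e-05) or A74 replicate 1 (0.0374). DESeq2 (adjusted p = 0.00902) and edgeR with no count minimum (adjusted p = 5.95e-06) also called Gbp5. In all, 8 of 14 alternatives called it, and the highest adjusted p among the 14 was 0.52. Txnip and Panx1, a thioredoxin inhibitor and an ATP channel, were higher in light damage than in control by 0.58 (edgeR adjusted p = 0.0192) and 0.44 (edgeR adjusted p = 0.036). The Txnip call was lost without control replicate 1 or light damage replicate 1 or 2 (0.0551 to 0.112), and that of Panx1 without control replicate 1 or 2 or light damage replicate 1 (0.0757 to 0.162) and with DESeq2 (0.0603), among others. Panx1 was called under 8 of 14 alternatives in light damage against control. With A74 against light damage Txnip and Panx1 were at -0.36 (0.151) and -0.24 (0.254), Txnip passing without light damage replicate 3 (0.0161). Nek7, a kinase that binds Nlrp3, was at -0.01 and -0.07 in the same 2 comparisons.

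Among the executioners, Casp8, an initiator caspase of apoptosis, was higher in light damage than in control by 1.53 (SE 0.29, edgeR adjusted p = 0.00109) and at -1.40 with A74 against light damage (SE 0.28, edgeR adjusted p = 0.00321), the second at -1.06 with the Y transcript term (0.0792). Gsdme, a gasdermin cut by caspase-3, was at 0.27 for light damage against control (edgeR adjusted p = 0.0213) and -0.44 for A74 against light damage (edgeR adjusted p = 0.002). The first was lost without control replicate 1 or 3 or light damage replicate 1 or 2 (0.0559 to 0.0931). Ninj1, which mediates the final rupture of the membrane, was at 0.53 (edgeR adjusted p = 0.037) and -0.60 (edgeR adjusted p = 0.0281). Its first call was lost without any 1 control replicate or light damage replicate 1 or 2 (0.057 to 0.168) and with DESeq2 (0.0572), and its second without light damage replicate 1 or 2 or any 1 A74 replicate (0.0514 to 0.148) and with the Y transcript term (0.34). Only 6 of 14 alternatives made the second call, so it was lost in others too.

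Among the cytokines and their inhibitors, Il33, an alarmin of the interleukin-1 family, was at 0.55 for light damage against control (SE 0.12, edgeR adjusted p = 0.00796). With A74 against light damage it was at -0.57 (edgeR adjusted p = 0.00965), lost without light damage replicate 1 (0.0507). Il1rn, which encodes the interleukin-1 receptor antagonist, had 10, 7 and 0 counts with light damage and 0 in all A74 and control libraries. Il1a, Il1rap and Il18bp passed the test in neither comparison, with log2 fold changes of 0.09, 0.02 and 0.18 for light damage against control and -0.57, -0.24 and -0.28 for A74 against light damage.

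Among the signalling genes downstream of the receptors, Irak2, a kinase that carries the interleukin-1 signal, was at 0.43 for light damage against control (edgeR adjusted p = 0.00658) and -0.48 for A74 against light damage (edgeR adjusted p = 0.00534), the second lost with the Y transcript term (0.0911). Irak3, an inhibitor of the same step, was at 1.83 (edgeR adjusted p = 0.00765) and -1.58 (edgeR adjusted p = 0.0203). The second was lost without light damage replicate 1 or A74 replicate 1 or 2 (0.0809 to 0.0922) and with the Y transcript term (0.093), among others, and was -2.24 without A74 replicate 3. It was called under 8 of 13 alternatives. Myd88, the adaptor of the interleukin-1 receptor, was at 0.67 (edgeR adjusted p = 0.0135), lost without control replicate 2 or 3 or light damage replicate 1 or 2 (0.0518 to 0.0644), and at -0.76 (edgeR adjusted p = 0.00982), lost without light damage replicate 1 (0.0526) or with the Y transcript term (0.208). Irak1, a kinase of the same complex, was at 0.28 (edgeR adjusted p = 0.0311), lost without any 1 control replicate or light damage replicate 1 or 2 (0.0699 to 0.141), and at -0.36 (edgeR adjusted p = 0.0117), lost without light damage replicate 2 (0.0723) or with the Y transcript term (0.196). Traf6, a ubiquitin ligase, was at -0.13 (edgeR adjusted p = 0.273) and 0.31 (edgeR adjusted p = 0.0143), the second lost without light damage replicate 1 (0.0737) or A74 replicate 2 (0.10), or with the Y transcript term (0.162).

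**Figure D4:**
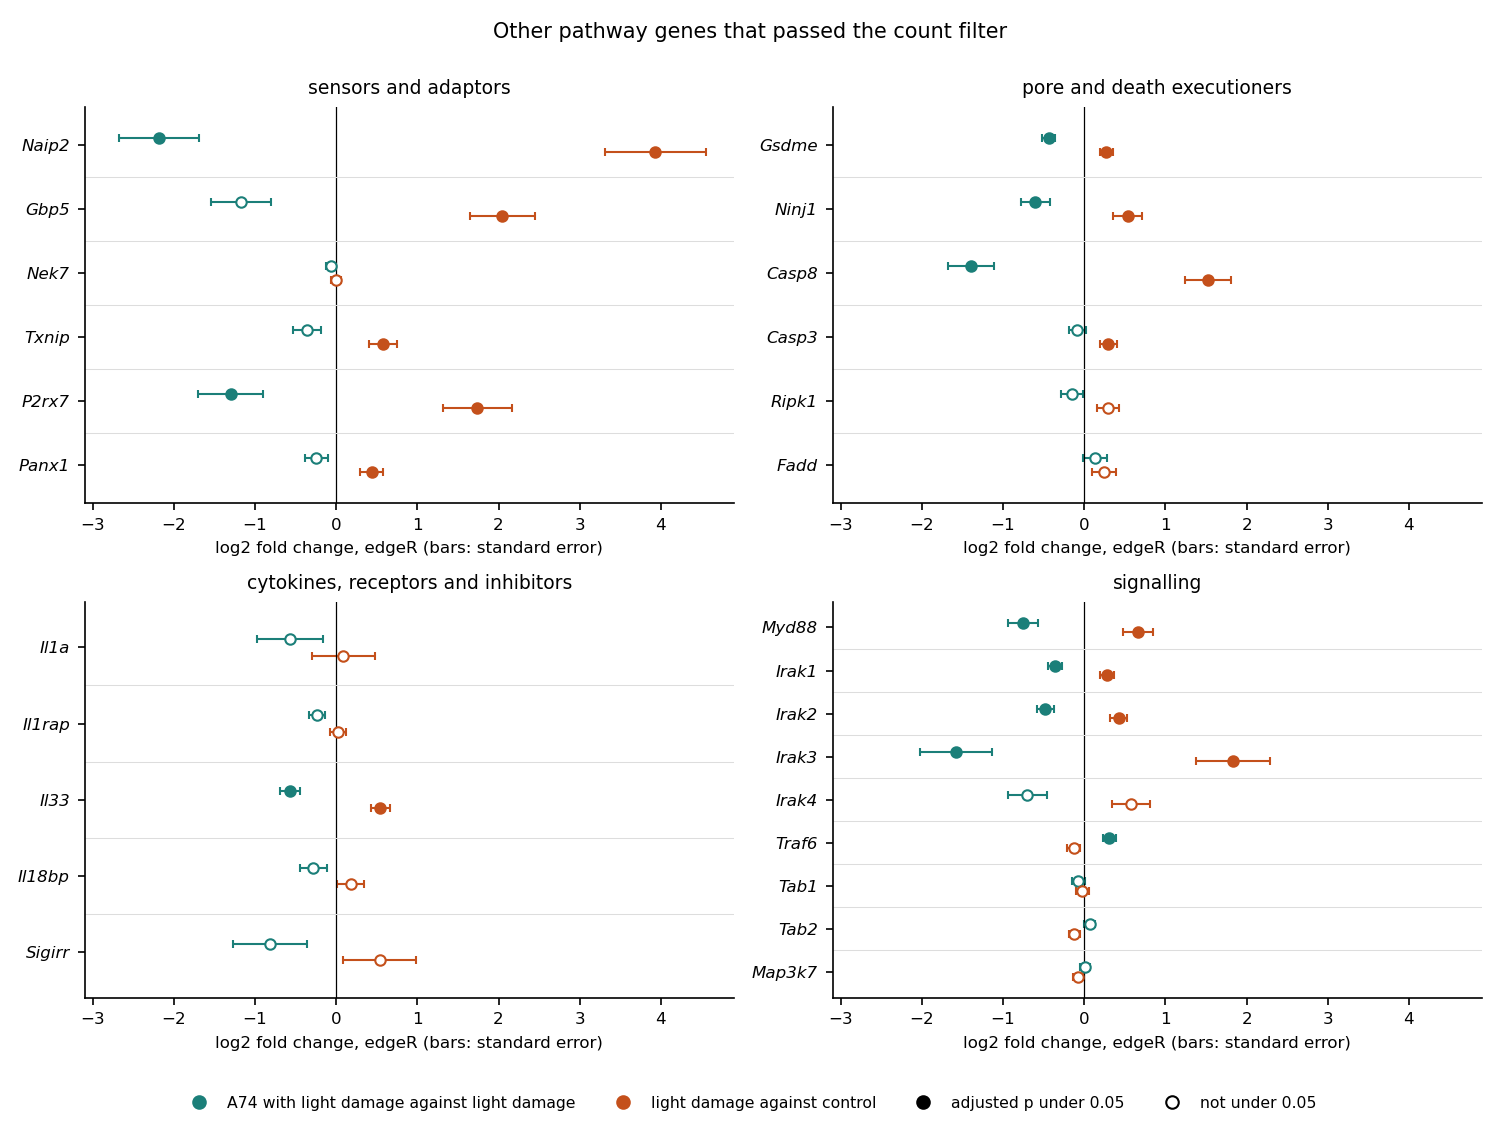
Log2 fold changes of further pathway genes that passed the count minimum, by class, for A74 against light damage and light damage against control, with standard errors as bars, filled where the edgeR adjusted p was under 0.05. Naip2, P2rx7, Gbp5, Casp8 and Irak3 lie farthest to the right for light damage against control, at 1.53 to 3.93.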

How the data were processed

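Bulk retina RNA was measured in 9 libraries. The deposited table holds whole-number counts per gene, not normalized. Per the submitters' processing notes, Bowtie2 and RSEM 1.3.1 were used with GRCm39; RSEM estimates are normally fractional, and how they became whole is not given in the sources used here. The authors' strand setting is likewise not given. From these counts, edgeR 4.0.16 (R 4.3.3) fitted 1 robust quasi-likelihood model to all 9 libraries with TMM scaling, after a minimum count of 10 in enough libraries to make up a group, and p-values were adjusted by Benjamini-Hochberg over 17272 genes. CPM are TMM-scaled, and log2 CPM used a prior count of 2. Count ratios carry exact 95% intervals, which cover counting error only, as reads are not independent molecules. The procedure was tested on simulated data. Alternatives included DESeq2 1.42.0.

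The members and lists were chosen with earlier results of these data known. Named genes were the 10 members, 14 pathway genes listed by name, the 8 others with the smallest adjusted p in a comparison, and the 5 genes most correlated with each member tested that reached 1 CPM in a group. Of the correlated genes only part are named, and 1 of the pathway genes is not reported here. The tests reported are unpaired, and a replicate block was fitted only as an alternative. Deviations from group means of same-numbered light damage and control libraries correlated at 0.116 to 0.311, above 0.1 in each pair. By that threshold the numbers were taken as possible pairs. The support is weak: the labels do not say what a number marks, the library names carry other numbers, and light damage replicate 1 correlated as much with control replicate 2 (0.127) as with control replicate 1 (0.116). In both groups, replicates 1 and 2 also had Y transcripts and high anterior eye markers, and replicate 3 had neither. Whether the correlations follow that shared split was not tested. Promoter tables are RefSeq on GRCm38.p6 and gene lengths are from GENCODE M21, and no coordinates were converted between builds.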

Additional observations from a re-analysis of the deposited data

How the results depend on the processing

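Casp1 and Pycard were called in light damage against control under all 14 alternatives, at 3.29 to 4.04 and 1.68 to 2.08. In A74 against light damage, 3 members were called, against 0 with the Y transcript term and 1 with DESeq2, which left 2 without an adjusted p. Leaving out 1 library gave 2 to 3 members in light damage against control, 2 to 4 in A74 against light damage and 0 in A74 against control. A replicate block left 2, 3 and 0 members called in the 3 comparisons, and changed no member's call. Same-numbered libraries correlated at -0.0672 to 0.128 in A74 against light damage and at -0.0925 to 0.137 in A74 against control, so they share only a number there. The block brought Gbp5 under the threshold in A74 against light damage (0.0122).

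Small values changed sign; the cause was not tested. With the Y transcript term, Pycard was 0.22 in A74 against control, and Aim2 and Il18 were 0.21 and 0.059 in A74 against light damage. Without light damage replicate 3 and A74 replicate 1, Il1r1 was 0.0023 in A74 against control and Il1a was -0.078 in light damage against control. Nek7 in light damage against control was 0.0080 with no count filter and 0.0020 with only those groups. With a prior count of 0.5, the ratio to microglia markers was 0.039 for Pycard in light damage against control and -0.135 for Gsdmd in A74 against light damage. Leaving out 1 library, or light damage replicate 3 with A74 replicate 1, gave these ranges for light damage against control: Nlrc4 -0.25 to 0.27, Aim2 -0.030 to 0.67, Nek7 -0.054 to 0.045, Il1a -0.085 to 0.37, Il1rap -0.089 to 0.088 and Il18bp -0.053 to 0.33. For A74 against light damage they were -0.64 to 0.066 for Aim2, -0.29 to 0.0085 for Il18 and -0.23 to 0.407 for the Gsdmd ratio. For A74 against control they were -1.78 to 0.89 for Casp1, -0.15 to 0.16 for Aim2, -0.11 to 0.078 for Il1r1, -0.799 to 0.0373 for the Casp1 ratio and -0.248 to 0.0963 for the Il18 ratio.

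Over all genes, 4452 were called in light damage against control (2818 without light damage replicate 2, 615 with a minimum change of 2-fold), 3153 in A74 against light damage (745 with the Y transcript term, 481 at 2-fold, 1717 without light damage replicate 1, 1731 without light damage replicate 2, 1815 without A74 replicate 2 and 1777 without A74 replicate 3) and 154 in A74 against control (718 with no filter, 558 with only those groups, 934 without light damage replicate 3 and A74 replicate 1, 322 by DESeq2, 96 with the Y transcript term, 16 at 2-fold, 306, 21 and 36 without A74 replicate 1, 2 or 3, and 28 and 35 without control replicate 1 or 2). Pathway genes called numbered 15 in light damage against control (5 at 2-fold) and 12 in A74 against light damage (4 at 2-fold, 3 with the Y transcript term). In A74 against control they numbered 0 (1 with no count filter). At these counts Nlrp3, Il1b and Casp4 could not be judged.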
